A study of Hydra vulgaris with 40 samples.

Results

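The last step of the bud course of Hydra vulgaris, from bud stage 8 to bud stage 10, was compared across all genes and set against the genes that are high in adult tentacles. The members are the 2 samples of stage 8 and the 2 samples of stage 10, which are 4 of the 40 RNA-seq samples of the study and 4 of its 16 bud samples. A gene was tested if 2 or more of these 4 samples had a value above 0, which held for 17388 of the 17438 genes listed. The study also sampled bud stages 1, 3, 4, 5, 6 and 7, a body map of adult tentacles, hypostome, foot, body column and budding zone, and head regeneration from 0 to 48 h after bisection, with 2 samples for each of the 20 conditions. All samples came from polyps that received no agent and whose feeding was stopped 1 day or more ahead of RNA isolation, and no genotype or transgene is named. A bud sample was the head region cut from a bud, so that its tissues were measured together. How many buds went into 1 sample is not given in the sources used here.

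Hydra is a freshwater polyp with a single body axis. At its upper end the hypostome, a cone that carries the mouth and the head organizer, is ringed by tentacles, whose ectoderm consists largely of battery cells packed with stinging cells for the capture of prey. Hydra reproduces asexually by budding: a bud grows out from the lower body column, forms a hypostome and tentacles at its free end, forms a foot at its base and then detaches as a small polyp.

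Values are given as the authors' adjusted TPM, a measure of transcript abundance that is scaled by transcript length and library total. Differences are on the log2(value + 1) scale, where 1 stands for a 2-fold change of a gene far above 1 and low genes are understated. A gene was called when its adjusted p was below 0.05 in limma's moderated test with Benjamini-Hochberg adjustment over the 17388 genes, with the spread estimated over all 16 bud samples. The columns summed to 1012704 in each stage 8 sample and to 1014380 in each stage 10 sample, with 265 and 303 genes listed at 0. The sorted values were the same in both samples of stage 8 and in both samples of stage 10. The same held within every other bud stage except stages 6 and 7, where replicate 1 of one stage and replicate 2 of the other had a common set of sorted values, and whether the labels of these samples were exchanged was not tested. The labels were kept, and the counts of called genes are also given without these stages, an alternative chosen after seeing the data. Across genes and among the bud samples, both stage 10 samples were nearest to a sample of stage 5 (Spearman's rho of 0.970 for replicate 1 and 0.953 for replicate 2 with stage 5 replicate 2, over genes that are not independent replicates). Their rho with each other was 0.949, and that of the stage 8 samples was 0.964.

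Few genes were called between stage 8 and stage 10. Only 3 genes were called higher at stage 10 (0.0173% of those tested) and 1 was called lower (0.00575%), 4 in all (0.023%). At an unadjusted p below 0.05 there were 804 higher (4.62%) and 457 lower genes (2.63%). The median change over all genes was 0.02 with an SD over genes of 0.48, and the median standard error of a single gene's change was 0.29. Set against stage 1, the first bud stage, the same fit called 1642 genes higher (9.44%) and 333 lower (1.92%) at stage 8, and 1254 genes higher (7.21%) and 69 lower (0.397%) at stage 10; these comparisons share the stage 1 samples. Without stages 6 and 7 the fit called 6 genes for the step, 4 higher and 2 lower, and against stage 1 it called 1725 genes higher and 656 lower at stage 8 and 1272 higher and 59 lower at stage 10. With only the 4 samples of stages 8 and 10 in the fit no gene was called, with 1686 genes at an unadjusted p below 0.05. The number called ran from 0 without stage 8 replicate 1 to 22 without stage 10 replicate 2.

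Both stage 10 samples lay above both stage 8 samples in 4058 genes (23.3%) and below both in 2303 (13.2%). With 2 samples a stage, unchanged genes can also fall in either order. Such shares, here and for the lists below, are therefore not counts of genes that moved. Of these genes that did not overlap, 63.8% were higher at stage 10 in the values as deposited, while 48.1% were higher after quantile normalization and 44.1% after median-ratio scaling of the 16 bud samples. Which direction was more frequent over all genes thus depended on the scaling. The change was over 2-fold in 426 of the higher genes and in 253 of the lower ones.

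Adult tentacle genes were defined from the 10 body map samples. They were significantly higher in tentacles than in the mean of the other tissues and over 2-fold above each of them. Here and in the other lists, 2-fold is a difference of 1 on the log2(value + 1) scale, which leaves out some low genes. The tentacle genes numbered 2021 of 17409 genes fitted in the body map (11.6%), and 2019 were tested in the buds. No body map sample entered the bud comparison. These genes took 23.4% and 22.6% of the total in the adult tentacle samples. In the buds they took 3.00% and 2.98% at stage 1, between 3.69% and 5.64% in the samples of stages 3 to 5, 7.23% and 3.97% at stage 6, 4.77% and 3.99% at stage 7, 7.75% and 8.11% at stage 8, and 5.82% and 9.26% at stage 10. The stage 10 samples thus lay on either side of the stage 8 samples, one below both and one above both, and 1 sample of stage 6 was already close to stage 8. Bud and adult levels are not compared further, since the deposited values had nearly the same mean in the buds as in the other samples gene by gene (median log2 ratio of −0.03 with an SD of 0.09 over 436 tentacle genes with a mean of at least 20).

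One tentacle gene was called higher at stage 10 and none lower. At an unadjusted p below 0.05 there were 36 higher (1.78% of the list) and 72 lower (3.57%), against 4.62% and 2.63% of all genes. Both stage 10 samples were above both stage 8 samples in 10% of the tentacle genes and below both in 16%, against 23.3% and 13.2% of all genes. The lower genes were the more frequent ones among tentacle genes under each scaling, with 7.13% higher and 24.1% lower after quantile normalization and 6.93% higher and 27.1% lower after median-ratio scaling. Over all genes the lower ones were then also the more frequent, with 18.2% higher and 19.7% lower after quantile normalization and 18% higher and 22.8% lower after median-ratio scaling. The median change of the list was −0.03, against 0.02 over all genes, with quartiles of −0.24 and 0.12 and a median standard error of 0.35. The median level was 7.31 at stage 8 and 7.14 at stage 10. In bulk samples, fewer cells of a type and less RNA per cell cannot be told apart.

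**Figure D1:**
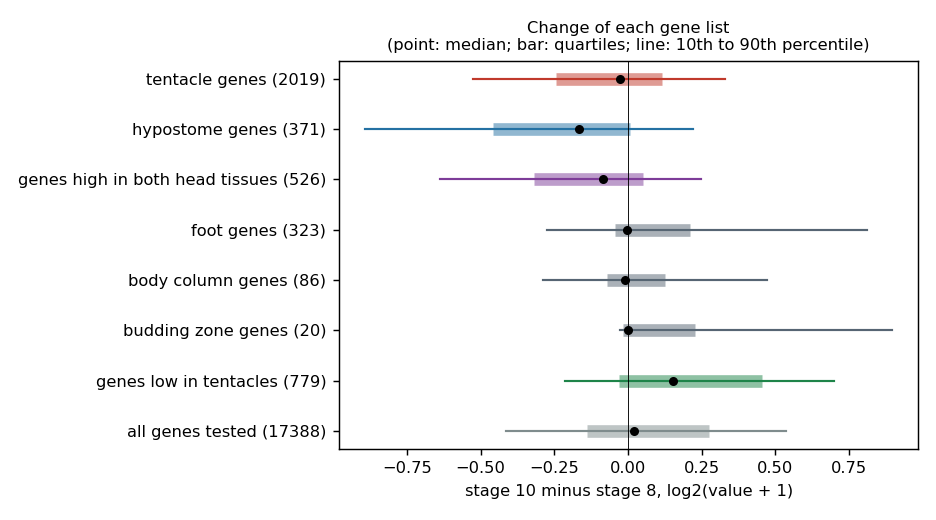
The change from stage 8 to stage 10 on the log2(value + 1) scale (x axis) is drawn for each list of adult tissue genes and for all 17388 genes tested, with the median as a point, the quartiles as a bar and a line between the outermost deciles. Tentacle genes are centred at −0.03 and hypostome genes at −0.17, while genes low in tentacles are centred at 0.15.

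The 2 stage 10 samples did not give the same picture of the tentacle genes. Replicate 1 had a median change of −0.17 from the stage 8 mean, with 17.9% of the list above both stage 8 samples and 61.8% below both. Replicate 2 had a median change of 0.08, with 52.6% above both and 25.3% below both. The stage 10 replicates differed from each other by a median of 0.25 over the list, while the stage 8 replicates differed by 0.04. The median of the list therefore took the sign of whichever stage 10 sample was kept, −0.17 without replicate 2 and 0.08 without replicate 1. Over all genes the medians of the stage 10 samples were closer to each other, 0.01 for replicate 1 and 0.05 for replicate 2.

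**Figure D2:**
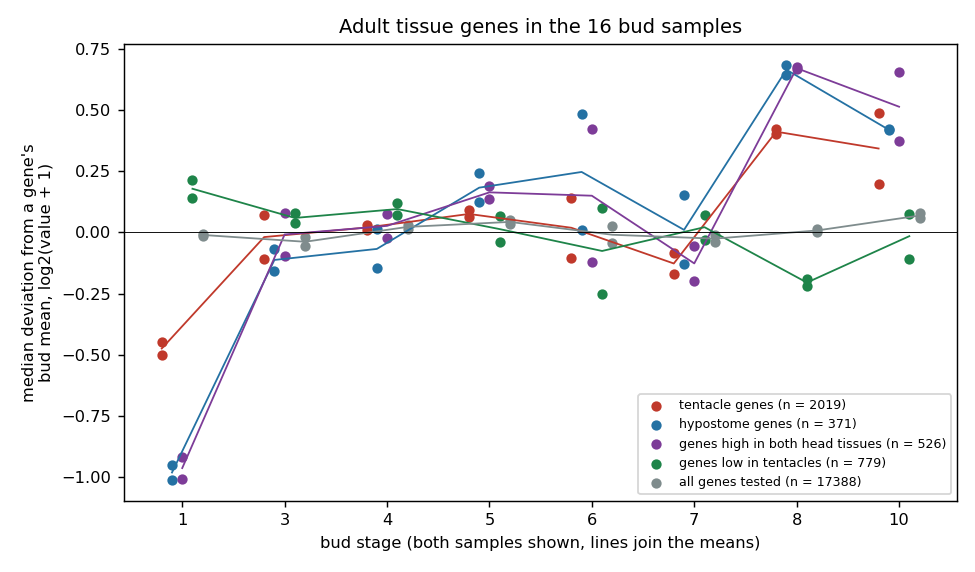
The median deviation of each gene list from its genes' own bud means on the log2(value + 1) scale (y axis) is drawn for both samples of each bud stage (x axis), with lines through the stage means. Tentacle genes are at 0.42 and 0.40 in the stage 8 samples and at 0.20 and 0.49 in the stage 10 samples, while both stage 1 samples are at or below −0.45.

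The tentacle genes were already high at stage 8. Against stage 1, 697 of them (34.5%) were called higher at stage 8 and 587 (29.1%) at stage 10, with medians of 0.86 and 0.81 in these comparisons, which share the stage 1 samples. Over all genes 9.44% and 7.21% were called higher. Without stages 6 and 7 in the fit the counts of tentacle genes were 729 (36.1%) and 608 (30.1%), against 9.92% and 7.32% of all genes. The stage with the highest mean was stage 8 for 42.3% of the tentacle genes and stage 10 for 29.3%. Over all genes tested these shares were 19.5% and 19.6%, and stage 1 had the highest mean for 15.4%. The stage 10 means joined 2 samples that differed on the tentacle genes. Neither these counts nor these shares were computed for each stage 10 sample alone.

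Hypostome genes, the 371 genes (2.13% of those in the body map) defined in the same way for the cone around the mouth, had a median change of −0.17. None of them was called. At an unadjusted p below 0.05, 5 were higher (1.35%) and 19 lower (5.12%), against 4.62% and 2.63% of all genes. Both stage 10 samples were above both stage 8 samples in 5.12% of them and below both in 34.2%. Over all genes these shares were 23.3% and 13.2%. Both stage 10 samples had a negative median change from stage 8, −0.19 for replicate 1 and −0.11 for replicate 2, and the median stayed negative under both other scalings, at −0.24 after each. It was 0.02 when the list was chosen by limma's threshold alone, without the fold rule, which gave 3027 genes. The hypostome genes took 2.45% and 2.44% of the total in the stage 8 samples and 1.94% and 2.44% in the stage 10 samples, so that replicate 2 of stage 10 was level with stage 8 by this measure. Stage 8 had the highest mean for 49.9% of the list and stage 10 for 19.7%, against 19.5% and 19.6% of all genes.

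The 526 genes (3.02%) high in both head tissues, tentacles and hypostome, over each of the other 3 tissues had a median change of −0.08. None was called, 8.37% were higher without overlap and 22.8% lower, against 23.3% and 13.2% of all genes. The median change from stage 8 was −0.27 in replicate 1 of stage 10 and 0.03 in replicate 2, so that the list, like the tentacle genes, took the sign of the stage 10 sample that was kept. Their median deviation from their own bud means was 0.67 and 0.68 in the stage 8 samples. It was 0.37 in replicate 1 and 0.65 in replicate 2 of stage 10. Their share of the total was 2.79% and 2.80% at stage 8 and 2.09% and 2.95% at stage 10, with replicate 1 below both stage 8 samples and replicate 2 above both. Stage 8 had the highest mean for 52.1% of these genes and stage 10 for 26.6%, against 19.5% and 19.6% of all genes.

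Genes low in tentacles lay on the other side. These 779 genes (4.47% of those in the body map), over 2-fold lower in adult tentacles than in each other tissue, had a median change of 0.15, which was 0.07 after quantile normalization and 0.06 after median-ratio scaling. None was called, 36.1% were higher at stage 10 without overlap and 6.03% lower, against 23.3% and 13.2% of all genes. After quantile normalization 29.7% were higher and 19.6% lower, against 18.2% and 19.7% of all genes. After median-ratio scaling 29.8% were higher and 19.9% lower, against 18% and 22.8%. This list, too, differed between the stage 10 samples, with a median change from stage 8 of 0.32 in replicate 1 and 0.02 in replicate 2. It took 8.61% and 8.02% of the total at stage 8 and 9.45% and 8.20% at stage 10, so the stages overlapped in this share.

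Genes of the other adult tissues had medians close to 0 when the lists were chosen with the fold rule. The body map gave 326 foot genes (1.87%), 86 body column genes (0.494%) and 23 budding zone genes (0.132%). The median change was −0.01 for the 323 foot genes tested, −0.01 for the 86 body column genes and 0.00 for the 20 budding zone genes. Their median levels at stage 8 were low, at 2.38, 1.71 and 0.822, against 7.31 for tentacle genes. Changes at such levels are understated on the log2(value + 1) scale, so medians near 0 do not show that these genes were stable. By limma's threshold alone the lists were larger and the medians higher. They were 0.05 for 1673 foot genes, 0.20 for 2621 body column genes and 0.24 for 2880 budding zone genes. One foot gene was called higher and no gene of the other lists was called. Among foot genes 20.1% were higher and 10.2% lower without overlap, against 23.3% and 13.2% of all genes. As over all genes, the direction turned with the scaling. The shares were 18% and 26.3% after quantile normalization (all genes: 18.2% and 19.7%), and 16.1% and 33.4% after median-ratio scaling (18% and 22.8%). At an unadjusted p below 0.05, 20 foot genes were higher (6.19%) and 2 lower (0.619%), against 4.62% and 2.63% of all genes. Foot genes took 0.714% and 0.794% of the total at stage 8 and 0.891% and 0.97% at stage 10, so that both stage 10 samples were above both stage 8 samples, while the stage 1 samples were at 1.53% and 1.00%.

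**Figure D3:**
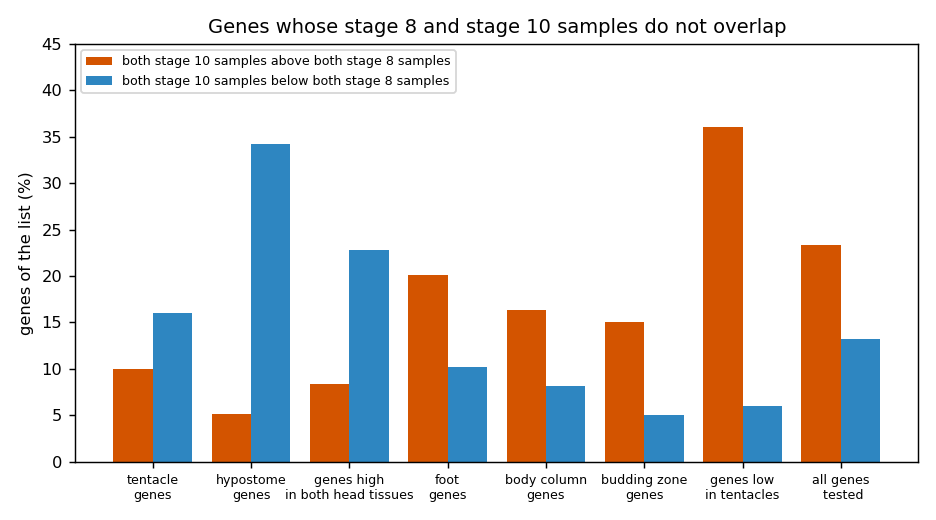
Bars give the percentage of each list (y axis, from 0) in which both stage 10 samples were above both stage 8 samples or below both, in the values as deposited. Genes below both are the more frequent ones in the tentacle (16% against 10%), hypostome (34.2% against 5.12%) and shared head lists (22.8% against 8.37%), and genes above both in all other lists and over all genes tested, of which only the genes low in tentacles keep that direction under both other scalings.

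The relation to adult tentacles was also followed over all genes, without a list. Over 17359 genes, Spearman's rho between the change from stage 8 to stage 10 and the difference of adult tentacles from the mean of the other tissues was −0.25. It was −0.358 for replicate 1 of stage 10 and −0.048 for replicate 2. These values are descriptions across genes that share the same libraries. Over all genes tested, 23.3% were higher at stage 10 without overlap and 13.2% lower. The 612 genes with a tentacle difference below −2 had a median change of 0.04, with 27.3% higher at stage 10 without overlap and 8.5% lower, and medians of 0.18 for replicate 1 and −0.07 for replicate 2. Genes with a tentacle difference between −2 and −1 had a median change of 0.28, with 40.4% higher at stage 10 without overlap and 7.86% lower. Genes between 2 and 4 had a median of −0.03, with 9.91% higher and 18.2% lower. The 271 genes with a difference above 4 had a median of −0.04, with 8.12% higher and 15.1% lower. In these most tentacle-enriched genes the stage 10 samples had medians of opposite sign, −0.30 for replicate 1 and 0.21 for replicate 2.

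**Figure D4:**
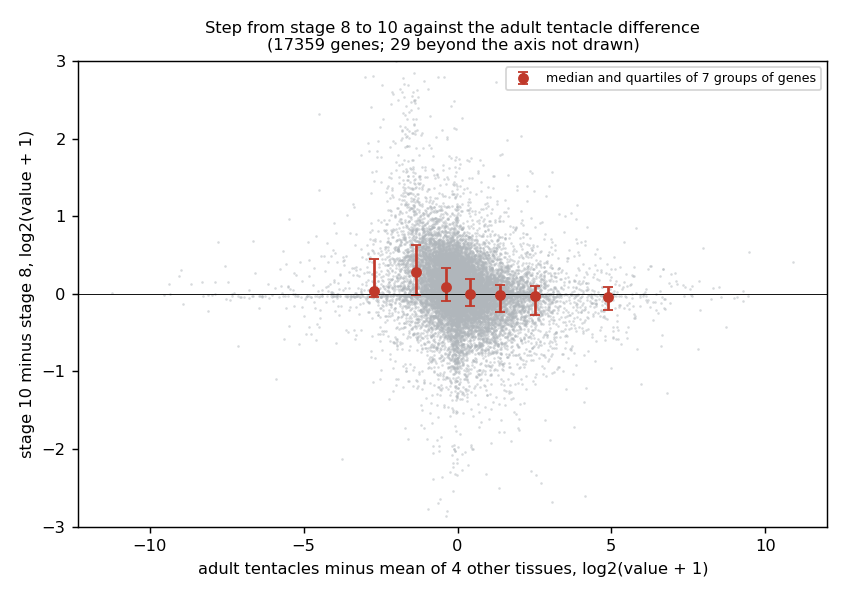
Each grey point is a gene, with the difference of adult tentacles from the mean of the 4 other tissues (x axis) and the change from stage 8 to stage 10 (y axis), both on the log2(value + 1) scale; red points and bars are medians and quartiles of 7 groups of genes along the x axis. The median is 0.04 for tentacle differences below −2, highest at 0.28 between −2 and −1, and between 0.00 and −0.04 in the groups above 0, and 29 genes with a change beyond 3 are not drawn.

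The tentacle genes were split by their level in the buds. Among the 727 tentacle genes with a mean between 10 and 100, 9.35% were higher at stage 10 without overlap and 16.9% lower, while all genes of that level had 31.2% higher and 10.6% lower. Among the 132 tentacle genes with a mean of at least 100, 1.52% were higher and 14.4% lower, against 19.9% and 13.5% of all genes of that level. Tentacle genes below 1 resembled other genes of that level more closely, with 10.3% higher and 12.5% lower against 11.1% and 16.9%.

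Head regeneration gives a separate view of which genes move as a head is rebuilt, in samples that are not shared with the buds. At 48 h after bisection, limma called 1701 of 17287 genes tested higher and 1913 lower than at 0 h. Of the 2019 tentacle genes, 767 were higher at 48 h and 14 were lower. The 767 had a median change of −0.10 from bud stage 8 to stage 10, with 7.17% higher and 20.7% lower without overlap. The 14 had a median of 0.10, with 21.4% higher and 7.14% lower. The 1238 tentacle genes that regeneration did not call had a median of −0.01, with 11.6% higher and 13.2% lower. Among all 13776 genes that it did not call, these shares were 21.4% and 13%. Over all genes, those higher at 48 h had a median step of −0.12, with 8.35% higher and 27% lower, and those lower at 48 h had a median step of 0.30, with 50.7% higher and 3.14% lower. The deposited values of the 3 courses may have been adjusted together, and the part of that adjustment in these values was not tested.

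The 4 called genes carry identifiers that none of the sources used here pairs with a name, so no function is given. They were few enough to be named after their values were seen, and apart from Sc4wPfr_155.g16881 all were at or below 1.51 in the 4 samples.

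Sc4wPfr_155.g16881, a gene of the foot list, was listed at 0 in both stage 8 samples and was 24.9 and 50.8 in the stage 10 samples. The stages did not overlap, and the change was 5.19 with a standard error of 0.43 (limma, Benjamini-Hochberg adjusted p of 0.0048). An exact 0 can be a failed estimate, and against samples at 0 the size of this change is set by the pseudocount (8.48 with a pseudocount of 0.1), so it is not a fold. In the other bud samples the gene was never at 0: it was 90.5 and 78.6 at stage 7 and had a mean of 188 at stage 1. In the adult it was 754 and 1139 in the foot, 2.60 and 1.52 in tentacles, and 0 in all 6 samples of the other tissues. Its mean over the 16 bud samples was 76.8 and that over the 24 other samples 79.0. The call was lost with only the 4 samples in the fit (adjusted p of 0.37) and without stage 8 replicate 1 (0.054).

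Sc4wPfr_26.g17323 was the 1 tentacle gene called. It was 0.17 and 0.21 at stage 8 and 1.18 and 1.51 at stage 10, a change of 0.98 with a standard error of 0.11 (limma, Benjamini-Hochberg adjusted p of 0.031). Every earlier bud sample was at or below 0.47, so both stage 10 samples were above all others of the course. In adult tentacles the gene was 4.05 and 6.05, in the foot 0.65 and 0.74, and in the other tissues 0. The call was lost under 8 of the alternatives, among them a pseudocount of 0.1 (adjusted p of 0.19), quantile normalization (0.071) and the fit without stage 8 replicate 1 (0.092).

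Sc4wPfr_4516.1.g3802, in none of the lists, was 0 and 0.02 at stage 8 and 0.98 and 1.18 at stage 10, a change of 1.04 with a standard error of 0.10 (limma, Benjamini-Hochberg adjusted p of 0.010). Both stage 10 samples were the highest of the course, where no other sample was above 0.23. In the adult the gene differed between replicates, at 0.89 and 0.03 in tentacles and 0.57 and 0.05 in the body column. It was at or below 0.06 in the other adult tissues. Its call was lost under 3 alternatives, a pseudocount of 0.1 (adjusted p of 0.15), only the 4 samples (0.37) and no stage 8 replicate 1 (0.060), and with a minimum of 1 it was not tested. Sc4wPfr_137.g27956, also in no list, was the gene that fell. It was 0.55 and 0.72 at stage 8 and 0 and 0.12 at stage 10, a change of −0.63 with a standard error of 0.08 (limma, Benjamini-Hochberg adjusted p of 0.042), and no other bud or body map sample was above 0.12. Its call was lost under 9 of the alternatives, among them the fit without stages 6 and 7 (adjusted p of 0.13).

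The genes named by rule include 3 that were not called. Sc4wPfr_79.g13376, a tentacle gene, was 11.4 and 13.4 at stage 8 and 18.7 and 20.8 at stage 10, with a change of 0.63 and a standard error of 0.17 (limma, Benjamini-Hochberg adjusted p of 0.52). Its stage 10 samples were the highest of the bud course, and adult tentacles were at 57.5 and 50.0. Sc4wPfr_506.2.g28738, another tentacle gene, was 14.4 and 14.8 at stage 8 and 4.06 and 7.24 at stage 10, with a change of −1.27 and a standard error of 0.23 (limma, Benjamini-Hochberg adjusted p of 0.26). Both stage 10 samples were below all samples of stages 3 to 8. Replicate 1 was near the stage 1 samples, at 4.21 and 4.09, while replicate 2 was nearer to stage 7 replicate 1, at 7.49. Adult tentacles were at 104 and 118 and every other tissue was listed at 0. Without stage 10 replicate 2 its change was −1.63 (adjusted p of 0.033).

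Sc4wPfr_312.g4823, a hypostome gene, was 24.7 and 15.2 at stage 8 and listed at 0 in both stage 10 samples, with a change of −4.35 and a standard error of 0.75 (limma, Benjamini-Hochberg adjusted p of 0.25). It was also listed at 0 in all samples of stages 1, 3 and 4, lay between 1.38 and 19.7 in stages 5 to 7, and was 40.0 and 46.4 in the adult hypostome. Here, too, the size is set by the pseudocount: with 0.1 the change was −7.61 (adjusted p of 0.033). The adjusted p was 0.012 in the fit without stages 6 and 7, whose samples shared sorted values across stage labels. Genes that went from 0 in both samples of one stage to at least 10 in both of the other were rare: 4 were at 0 at stage 8 and 1 at stage 10.

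**Figure D5:**
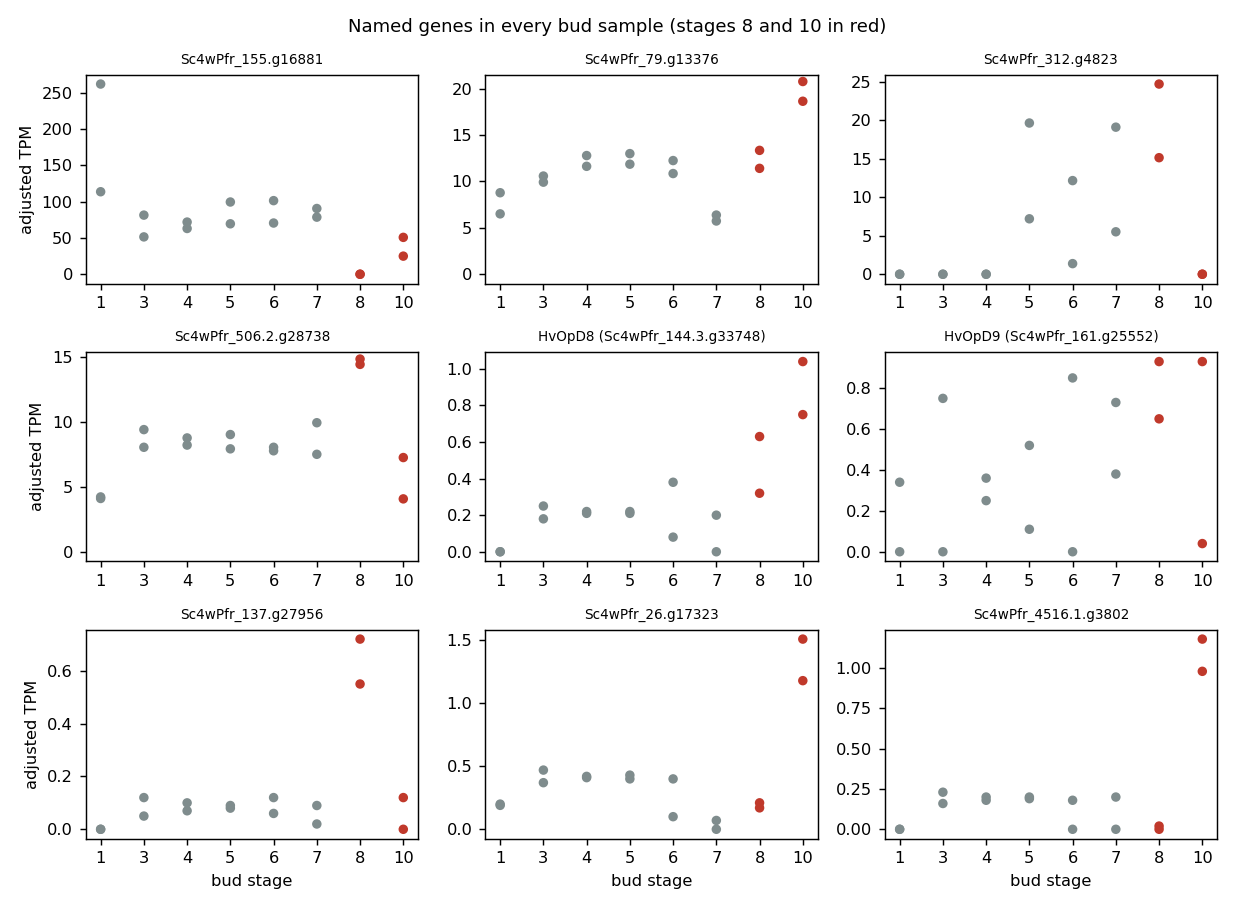
The adjusted TPM (y axis, linear) of each named gene is drawn for both samples of each bud stage (x axis), with stages 8 and 10 in red. Sc4wPfr_155.g16881 is at 0 at stage 8 only, and the stage 10 samples of Sc4wPfr_26.g17323 and Sc4wPfr_4516.1.g3802 are the highest of the course.

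Opsins, receptor proteins known mainly from light detection, were the focus of the study. Of these, 2, HvOpD8 and HvOpD9, could be matched by identifier to the expression values. The study reports that HvOpD9 lacks the lysine at which opsins bind their light-sensitive retinal molecule. HvOpD8 (Sc4wPfr_144.3.g33748, scaffold positions 1004179 to 1014236 in the Hydra 2.0 assembly) was 0.32 and 0.63 at stage 8 and 0.75 and 1.04 at stage 10, so that the stages did not overlap. Its change was 0.37 with a standard error of 0.14 (limma, Benjamini-Hochberg adjusted p of 0.63), and both stage 10 samples were the highest of the bud course. It was 0.59 and 1.32 in adult tentacles and between 0.03 and 0.19 in the other adult tissues. HvOpD9 (Sc4wPfr_161.g25552, scaffold positions 296470 to 297429 in the Hydra 2.0 assembly), a member of the tentacle list at 2.13 and 2.36 in adult tentacles, was 0.65 and 0.93 at stage 8 and 0.04 and 0.93 at stage 10. One stage 10 sample was thus far below stage 8 and the other level with its higher sample, and the change of −0.33 had a standard error of 0.38 (limma, Benjamini-Hochberg adjusted p of 0.98). Without stage 10 replicate 1 the change was 0.11.

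The value of HvOpD9 may also depend on how short reads are shared with its neighbour on the same scaffold, HvOpD10. The stretch that the first 400 bases of both sequences have in common is shown because it is longer than a read of 43 bases. A read inside it matches both genes, although the other read of its pair may lie outside. It is given 5′ to 3′ with 15 bases on either side, and capitals mark the 49 shared bases, positions 313 to 361 counted from the first base of each sequence.
HvOpD9: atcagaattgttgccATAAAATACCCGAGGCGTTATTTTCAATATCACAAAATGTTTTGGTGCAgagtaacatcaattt
HvOpD10: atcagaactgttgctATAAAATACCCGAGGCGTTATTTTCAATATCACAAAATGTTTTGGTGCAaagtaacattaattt
Within the 400 bases compared, the longest run that HvOpD8 shared with any of the 42 other opsin sequences compared was 14 bases, with HvOpD27. The part of shared reads in the HvOpD9 values was not tested.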

How the data were processed

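RNA was isolated from head regions of buds, amplified as full-length cDNA from poly-dT priming and sequenced in paired 43-base reads. Per the labels and the study's methods, the authors used Trimmomatic 0.35 for trimming, Bowtie 1.2 for alignment to transcripts, RSEM 1.2.31 for TPM, ComBat against batch effects and qsmooth, a smooth quantile normalization. The deposited values were therefore read as signal, that is, adjusted TPM. Which of these steps lie behind them is not stated, and the analysis had been designed for TPM. Read depth, and the precision it gives, is unknown.

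Columns were assigned to samples by name and stages taken from the labels. log2(value + 1) was fitted in R 4.3.3 with limma 3.58.1 (a mean per bud stage over 16 samples, eBayes with a trend), two-sided, at an adjusted p of 0.05. A gene was tested if 2 of the 4 samples exceeded 0. Residual degrees of freedom were 8. The study's methods speak of biological replicates, but do not state whether the bud samples of a stage came from separate animals. The p-values measure the spread between samples, and they may be too small because both samples of a stage share sorted values. Adult lists, from the 10 body map samples, required an adjusted p of 0.05 against the mean of the other tissues. They also required over 2-fold above each other tissue (tentacle-low: below), as a difference over 1 in log2(value + 1). Lists are described by counts and medians, with no test over a list.

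The members and lists were chosen with earlier results of these data known. The genes named by rule were the largest rise and fall without overlap, overall and in the tentacle list, with a mean of at least 10 in the higher stage (where none was called, the gene with the smallest p), and the 2 opsins. None of the 17438 identifiers matched the RefSeq table of another assembly (0 matches). Alternatives were a pseudocount of 0.1, a minimum of 1, no filter, 2 scalings, a replicate block, robust eBayes, only the 4 samples, leaving out each sample, other list rules and, chosen after seeing the data, leaving out stages 6 and 7. Python 3.11.15, pandas 2.3.3 and matplotlib 3.10.9 were used.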

Additional observations from a re-analysis of the deposited data

Results flagged for a closer look

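The step from stage 8 to 10 was tested against the step from stage 7 to 8 as a difference of contrasts in the same limma fit; both steps use the stage 8 samples, so a high or low value at stage 8 alone enters both steps, adds up in their difference and makes it larger than either step. Stage 7 values are those of the samples labelled stage 7, which share sorted values with samples labelled stage 6, and whether these labels were exchanged was not tested. It was called for 2 genes (0.0115% of those tested), with 1205 genes at an unadjusted p below 0.05. Sc4wPfr_155.g16881 had a difference of 11.61 (standard error 0.74, limma adjusted p of 0.00042), being 90.5 and 78.6 at stage 7, 0 in both stage 8 samples, and 24.9 and 50.8 at stage 10. Sc4wPfr_137.g27956 had a difference of −1.26 (standard error 0.13, limma adjusted p of 0.022), being 0.02 and 0.09 at stage 7, 0.55 and 0.72 at stage 8, and 0 and 0.12 at stage 10. In both genes the stage 8 samples are the ones that stand apart from the stages on either side.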

How the results depend on the processing

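The 4 calls of the step became 1 with a minimum of 1 in 2 samples, 2 after quantile normalization, 2 with the replicate number as a block and 0 with only the 4 samples in the fit, and leaving out single samples gave 0 to 22. The numbers did not pair the samples (correlation of same-numbered deviations of 0.029 between stages 8 and 10, and −0.34 to 0.362 over 28 pairs of stages). Median-ratio scaling gave 5 calls, which included all 4, and the fit without stages 6 and 7, chosen after seeing the data, gave 6, which included 3 of them. A pseudocount of 0.1 gave 4 calls, of which 1 was shared. The 1 tentacle gene called became 0 with a pseudocount of 0.1, a minimum of 1, quantile normalization, only the 4 samples, the replicate block and lists at 4-fold, and 2 after median-ratio scaling, with 0 to 8 when single samples were left out. The median change of the tentacle list lay between −0.17 and 0.08 in those fits, and between −0.10 and −0.01 under the other scalings, pseudocount and list rules. Genes called for the difference between the steps went from 2 to 1 with a minimum of 1, and to 6 to 36 when single samples were left out; it could not be computed with only the 4 samples or without stages 6 and 7. HvOpD8 lay between 0.21 and 0.52 and HvOpD9 between −0.78 and 0.11 when single samples were left out, the latter being positive without stage 10 replicate 1. A minimum of 1 took both opsins and 2 of the called genes out of the test. The causes of the other changes were not tested. Where a fit left 1 sample in a stage, that sample was assumed to vary like the other stages. With 2 samples a stage that differ in the tentacle genes, and a depth that is unknown, changes near the median standard error of 0.29 could not be resolved. Larger ones could be missed too, since an unadjusted limma p below 0.05 took a change of 2.23 standard errors and a call took more. Sc4wPfr_506.2.g28738 at −1.27 and Sc4wPfr_312.g4823 at −4.35 were not called. The small number of calls therefore does not show that little changed.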
